A study of Mus musculus with 9 samples.

Results

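The TGF-beta and BMP family was followed across mammary gland stages in adipose stromal cells (ASCs) of the mouse mammary fat pad. Its members were the genes whose symbols name a TGF-beta, BMP, GDF, activin or inhibin ligand, a receptor, a Smad, a latent TGF-beta binding protein, or the antagonists noggin, chordin, gremlin and follistatin. They were 55 genes of the 19930 measured on Affymetrix Mouse Gene 1.0 ST arrays, and each was read by 1 probe set. Gdf1 shared its only probe set with Cers1 and was left out, and Gdf15 was not analysed here.

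The 9 arrays held total RNA from ASCs of female Balb/c mice. ASC-Ns came from nulliparous glands of mice 8 weeks old that had met no males, ASC-Ls from lactation day 5 and ASC-Is from involution day 3, with 3 arrays each. No group carried a transgene or received an agent, and the lactating and involuting mice had been bred while the nulliparous mice had not. The bred mice were mated at 8 weeks of age, so they were older at collection, and age cannot be told apart from stage. The arrays were labeled as biological replicates, but the number of mice behind each array was not stated, so P values measured the spread between these arrays. The stroma was isolated by enzymatic digestion and centrifugation, and the methods give low passage cultures as the source of the RNA, which the labels do not mention.

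TGF-beta family ligands are secreted dimers that assemble a complex of type I and type II serine/threonine kinase receptors. TGF-betas and activins act through Smad2 and Smad3, BMPs act through Smad1, Smad5 and Smad9, and both groups share Smad4. Latent TGF-beta binding proteins hold TGF-beta in the matrix, soluble antagonists trap BMPs and activins, and Smad6 and Smad7 damp the signal inside the cell. In adipose stroma the family is known for its control of adipogenesis, matrix production and the myofibroblast state.

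All values below are log2 signals, on which 1 unit is a doubling, and changes are differences of log2 means. Members were not ranked against each other by signal, because each came from its own probe set. A rank over all genes served only to mark or filter the lowest 25% of mean signal. Array medians lay between 5.93 and 6.005, and arrays of the same stage correlated at r = 0.956 to 0.990 over all genes. The labeled cell type was checked against the 11 measured fibroblast and adipose progenitor markers, which averaged 9.70 to 10.83. The 11 adipocyte markers averaged 5.56 to 5.91, with Adipoq at 3.82 to 4.41 and Fabp4 at 7.50 to 8.45. A pair of arrays stood apart. The 18 measured luminal epithelial markers averaged 8.86 in the second ASC-L array and 7.69 in the second ASC-I array (replicate 2 of each), against 5.81 to 7.004 in the other 7, and 14 of the 18 were highest in this pair. Epcam, a defining epithelial gene, had 10.26 and 8.38 in the pair and 4.26 to 7.61 elsewhere. The 13 basal epithelial markers averaged 8.69 and 7.12 in the pair and 5.30 to 6.14 elsewhere. The 12 endothelial markers averaged 7.20 and 6.66 in the pair and 5.31 to 6.90 elsewhere, and 10 of them were highest in ASC-L replicate 2, where the fibroblast markers were lowest. The 20 macrophage markers also varied within a stage, with means of 6.03 to 8.14 in ASC-Ns, 6.40 to 6.73 in ASC-Ls and 7.18 to 8.67 in ASC-Is. In bulk RNA of this kind, fewer cells of a type and less RNA per cell cannot be told apart.

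Few members differed between stages. A call required an unadjusted P below 0.05 in the linear model fitted to all genes with limma and a change of at least 1.5-fold, and changes are given with their standard error (SE) from that fit. In ASC-Ls against ASC-Ns 2 of the 55 members were called, Gdf10 and Smad6, both lower, against 0.627% of all genes in either direction and 0.457% lower. In ASC-Is against ASC-Ns 1 member was called, Smad6, again lower, against 0.251% of all genes, 0.0702% higher and 0.181% lower. In ASC-Is against ASC-Ls 0 members were called, against 0.482% of all genes, 0.406% higher and 0.0753% lower. With so few members called, 2 of 55 is 3.64% and 1 of 55 is 1.82%, and each share turns on single genes.

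Without the fold limit the counts at an unadjusted P below 0.05 were 3, 2 and 0 members in these comparisons, against 3.64%, 1.56% and 1.80% of all genes. For a single gene an exact two-sided permutation test of 3 arrays against 3 cannot go below 0.1. No member passed after Benjamini-Hochberg adjustment over the 19930 genes with limma, where 0 genes of the whole array passed in any of the 3 comparisons. The smallest adjusted P of a member was 0.998. A moderated F test over the 3 stages gave 0 members at an unadjusted P below 0.05, against 1.73% of all genes, and the adjusted P was 1 for all 55.

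The 2 called genes and Smad9, the uncalled member that passed the P limit in ASC-Ls against ASC-Ns, are shown first with their promoters from RefSeq (GRCm38.p6), since all 3 lay below every ASC-N array in ASC-Ls. Each window runs from 250 bases before to 30 bases after the start in that table, on the strand of the gene. For Smad6 and Smad9 this start differed from the one in the RefSeq gene table. The windows were chr9:64022030-64022309 on the minus strand for Smad6, chr14:33923337-33923616 on the plus strand for Gdf10 and chr3:54755332-54755611 on the plus strand for Smad9. Capitals mark GTCTAGAC, the Smad-binding palindrome, in Smad6, and GGCGCC, a GC-rich hexamer of BMP response elements, in Gdf10 and Smad9.
Smad6: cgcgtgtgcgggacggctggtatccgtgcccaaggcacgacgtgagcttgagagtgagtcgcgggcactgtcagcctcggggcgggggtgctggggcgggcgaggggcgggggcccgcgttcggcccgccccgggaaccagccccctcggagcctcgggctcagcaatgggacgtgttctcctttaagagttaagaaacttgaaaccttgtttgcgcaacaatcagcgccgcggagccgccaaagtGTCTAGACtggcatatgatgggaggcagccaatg
Gdf10: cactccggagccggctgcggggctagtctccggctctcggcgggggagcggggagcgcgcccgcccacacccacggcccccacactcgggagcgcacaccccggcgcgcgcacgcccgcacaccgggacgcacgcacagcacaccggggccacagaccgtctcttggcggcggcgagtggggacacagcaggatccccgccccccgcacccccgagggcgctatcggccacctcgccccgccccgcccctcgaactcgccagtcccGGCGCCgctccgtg
Smad9: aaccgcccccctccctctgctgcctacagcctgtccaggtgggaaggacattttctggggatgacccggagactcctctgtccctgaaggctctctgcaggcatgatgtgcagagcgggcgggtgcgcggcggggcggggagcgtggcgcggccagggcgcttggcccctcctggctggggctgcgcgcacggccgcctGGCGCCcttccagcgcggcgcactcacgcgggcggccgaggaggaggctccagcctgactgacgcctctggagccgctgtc
Both motifs read the same on the 2 strands and were searched in the whole RefSeq windows of 300 bases, which were at hand for 39 members. GTCTAGAC was present in 1 of these members, Smad6, and in 70 of all 32851 promoters (0.213%). GGCGCC was present in 10 of the 39 members and in 11.9% of all promoters. A match describes the letters and shows no binding.

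Gdf10 encodes BMP3b, a divergent ligand closest to BMP3. Its log2 signal was 8.36, 7.72 and 8.55 in the ASC-N arrays, 7.06, 6.42 and 6.92 in the ASC-L arrays, and 6.72, 6.91 and 8.997 in the ASC-I arrays. All ASC-L arrays lay below all ASC-N arrays, and the ASC-I arrays fell apart, 2 of them low and the third above every other array. Gdf10 fell to 6.80 ± 0.34 in ASC-Ls, against 8.21 ± 0.43 in ASC-Ns (SD, n = 3 each), a 2.66-fold difference (log2 change -1.41, SE 0.54, limma adjusted P = 0.998). The change in ASC-Is against ASC-Ns was -0.67 (SE 0.54), and without ASC-I replicate 3 it was -1.39 and was called (SE 0.28).

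Smad6 encodes an inhibitory Smad that is itself induced by BMP and restrains BMP receptor signaling. It had 7.64, 7.80 and 7.46 in ASC-Ns, 7.27, 6.52 and 6.95 in ASC-Ls, and 7.02, 6.29 and 7.43 in ASC-Is. Every ASC-L and ASC-I array lay below every ASC-N array, although the highest ASC-I array came within 0.1 of the lowest ASC-N array. The log2 change was -0.72 in ASC-Ls against ASC-Ns (SE 0.29, 1.65-fold lower, adjusted P = 0.998) and -0.72 in ASC-Is against ASC-Ns (SE 0.29, adjusted P = 1). The 2 comparisons share the ASC-N arrays. ASC-Is and ASC-Ls differed by 0.0015.

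Both genes were lowest, within ASC-Ls, in replicate 2, the array of the highest luminal markers, and Smad6 within ASC-Is was lowest in replicate 2 as well. Without ASC-L replicate 2 the change of Gdf10 in ASC-Ls against ASC-Ns was -1.22 and that of Smad6 was -0.53, and neither was called. The calls also depended on other arrays. Gdf10 was no longer called in ASC-Ls without ASC-N replicate 1 (-1.34), ASC-N replicate 3 (-1.24) or ASC-L replicate 3 (-1.47), and Smad6 without ASC-N replicate 1 (-0.72), ASC-N replicate 2 (-0.64) or ASC-L replicate 3 (-0.74). The Smad6 call in ASC-Is was lost when either of the first 2 ASC-N arrays was left out (-0.72 without replicate 1, -0.64 without replicate 2), and likewise for the first 2 ASC-I arrays (-0.78 without replicate 1, -0.41 without replicate 2). The direction was lower in each of these fits.

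**Figure D1:**
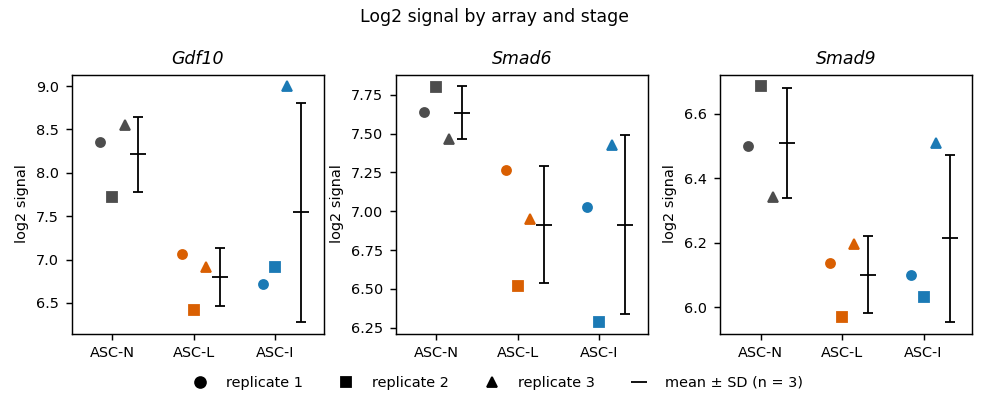
Log2 signal of Gdf10, Smad6 and Smad9 in each of the 9 arrays, by stage on the horizontal axis. Symbols are replicate numbers, and bars are the mean ± SD of 3 arrays. All 3 genes lay lower in every ASC-L array than in every ASC-N array, and ASC-I replicate 3 was the highest ASC-I array in each panel.

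Smad9, the third BMP-regulated Smad, had 6.50, 6.69 and 6.34 in ASC-Ns, 6.14, 5.97 and 6.20 in ASC-Ls, and 6.10, 6.03 and 6.51 in ASC-Is. The ASC-L arrays lay wholly below the ASC-N arrays, and ASC-I replicate 3 lay among the ASC-N arrays. The change was -0.41 in ASC-Ls against ASC-Ns (SE 0.16), past the P limit but under 1.5-fold, and -0.30 in ASC-Is against ASC-Ns (SE 0.16). Without ASC-L replicate 2 it was -0.34 and no longer past the P limit.

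None of the other Smads was called. For Smad3 and Smad7 the 95% confidence interval in ASC-Ls against ASC-Ns did not lie wholly inside 1.5-fold. All 6 receptor-regulated and common Smads had a change below 0 in ASC-Ls against ASC-Ns, of -0.41 to -0.03, with a median of -0.09 and 0 called. Smad5, which carries BMP signals beside Smad1 and Smad9, had 8.55, 8.35 and 8.17 in ASC-Ns, 7.99, 8.57 and 8.03 in ASC-Ls and 8.11, 8.28 and 8.26 in ASC-Is, so that the stages overlapped. Smad1, Smad2, Smad3 and Smad4 changed by -0.13 to 0.12 in the 3 comparisons. Smad7, the inhibitory Smad that acts on both TGF-beta and BMP receptors, had changes of -0.10 in ASC-Ls and 0.03 in ASC-Is against ASC-Ns, with overlapping arrays. Its values ran between 8.64 and 9.52.

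Among the ligands, the 3 TGF-betas were not called. Tgfb1, the main matrix-inducing isoform, had 9.79, 9.70 and 9.90 in ASC-Ns, 9.36, 11.05 and 10.60 in ASC-Ls and 9.29, 10.54 and 9.64 in ASC-Is. The ASC-N arrays were tightly grouped, while the ASC-L arrays spanned both sides of them. The change in ASC-Ls against ASC-Ns was 0.54 (SE 0.43), and without ASC-L replicate 2 it was 0.19 (SE 0.42). Without ASC-L replicate 1 Tgfb1 was called higher in ASC-Ls. Tgfb2 had 8.30, 8.40 and 7.55 in ASC-Ns, 8.34, 9.04 and 7.40 in ASC-Ls and 8.45, 8.48 and 7.74 in ASC-Is, with replicate 3 lowest at every stage. Tgfb3 changed by at most 0.14 in size in any comparison.

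The latent TGF-beta binding proteins store TGF-beta in the extracellular matrix. None of the 4 was called, and in ASC-Is against ASC-Ns all 4 had changes below 0, of -0.32 to -0.01. Ltbp2 had 10.10, 10.37 and 11.36 in ASC-Ns, 9.81, 10.20 and 10.40 in ASC-Ls and 9.70, 9.94 and 11.22 in ASC-Is, and Ltbp3 had 9.33, 9.16 and 9.77 in ASC-Ns, 9.24, 8.95 and 9.16 in ASC-Ls and 9.67, 8.78 and 9.79 in ASC-Is. Replicate 3 was the highest array of its stage for Ltbp2 in all 3 stages. Without ASC-I replicate 2, Ltbp3 was called higher in ASC-Is than in ASC-Ls, which it was not over all arrays (0.29, SE 0.27). It was the only member called in that fit, where 1.59% of all genes were called, against 0.482% over all arrays.

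Of the 10 BMP ligands 7 had a change above 0 in ASC-Ls and 9 in ASC-Is against ASC-Ns, with medians of 0.19 and 0.08, against 0.01 and 0.00 over all genes, and 0 were called. Bmp5 had 4.67, 4.92 and 4.92 in ASC-Ns, 4.94, 6.56 and 5.20 in ASC-Ls and 4.82, 5.71 and 4.41 in ASC-Is. The ASC-L arrays lay above the ASC-N arrays, replicate 1 by a narrow margin and replicate 2 by the widest. The change was 0.73 in ASC-Ls against ASC-Ns (SE 0.44) and 0.24 without ASC-L replicate 2 (SE 0.33).

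Bmp2, an inducer of bone and fat commitment in stromal progenitors, had 5.21, 4.31 and 4.09 in ASC-Ns, 4.22, 5.59 and 5.44 in ASC-Ls and 4.42, 4.69 and 4.57 in ASC-Is. Its arrays overlapped in ASC-Ls and ASC-Ns, and its mean signal lay in the lowest 25% of all genes. Bmp10, a circulating ligand of ALK1 made mainly in the heart, also lay in the lowest 25% and was chosen after its values were seen. It had 4.51, 4.39 and 4.67 in ASC-Ls and 4.79, 4.52 and 4.36 in the ASC-I arrays and 4.21, 4.27 and 4.18 in the ASC-N arrays. The ASC-N arrays lay below all others, with a change of 0.33 in ASC-Is that passed the P limit but not the fold limit (SE 0.13) and one of 0.30 in ASC-Ls that passed neither (SE 0.13). The other BMP ligands stayed between -0.32 and 0.38 in all 3 comparisons. Bmp1, a procollagen and chordin protease and no BMP ligand, changed by at most 0.03 in size.

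Apart from Gdf10, the 7 GDF ligands showed changes of -0.12 to 0.19 in ASC-Ls and of -0.05 to 0.13 in ASC-Is against ASC-Ns. Counting every member, 2 had all ASC-L arrays above all ASC-N arrays, Bmp5 and Bmp10, against 4.89% of all genes, and 3 had them below, Gdf10, Smad6 and Smad9, against 3.70%. In ASC-Is 2 members, Bmp10 and the activin receptor Acvr2b, lay wholly above ASC-Ns (3.89% of all genes) and 1, Smad6, wholly below (2.65%). No member separated ASC-Is and ASC-Ls, where 2.6% of all genes lay wholly higher and 2.96% wholly lower.

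The activin and inhibin subunits were all above 0 in ASC-Ls and in ASC-Is against ASC-Ns, 5 of 5 each, with medians of 0.05 and 0.10 and 0 called. Inhba, the subunit of activin A, had 10.82, 10.63 and 10.99 in ASC-Ns, 11.02, 12.32 and 10.96 in ASC-Ls and 10.85, 12.04 and 11.08 in ASC-Is. It was high in replicate 2 of ASC-Ls and ASC-Is, the pair of arrays with high luminal markers, and within 10.63 to 11.08 in the rest. Its change in ASC-Ls against ASC-Ns was 0.62 (SE 0.40), and 0.17 without ASC-L replicate 2 (SE 0.32). Inhbb, the subunit of activin B, was lowest in replicate 2 of each stage, with 7.74, 7.56 and 8.48 in ASC-Ns, 8.25, 7.56 and 8.74 in ASC-Ls and 7.93, 7.31 and 8.82 in ASC-Is.

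Of the secreted antagonists, 0 of 4 were called. Grem1, which binds BMP2, BMP4 and BMP7, had the widest spread of all members, a within-stage SD of 1.35. It had 8.85, 9.60 and 10.69 in ASC-Ns, 8.90, 9.61 and 11.77 in ASC-Ls and 7.75, 9.97 and 10.72 in ASC-Is. Replicate 1 was the lowest and replicate 3 the highest array of each stage, and the stages overlapped throughout. Fst, which neutralizes activins, had 9.62, 9.05 and 9.95 in ASC-Ns, 9.66, 9.36 and 8.94 in ASC-Ls and 9.22, 9.24 and 10.05 in ASC-Is. Nog and Chrd, which sequester BMPs, changed by -0.13 to 0.20 over the comparisons.

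No receptor was called. The 7 type I receptors changed by -0.30 to 0.20 in ASC-Ls and by -0.21 to 0.15 in ASC-Is against ASC-Ns. Acvr1b, the activin receptor ALK4, had 7.76, 7.19 and 8.31 in ASC-Ns, 7.38, 7.15 and 7.84 in ASC-Ls and 7.72, 7.05 and 8.04 in ASC-Is, so that replicate 2 was lowest and replicate 3 highest at each stage. Acvrl1, the endothelial receptor ALK1, had 7.49, 7.16 and 8.63 in ASC-Ns, 8.07, 6.78 and 7.91 in ASC-Ls and 8.05, 7.20 and 8.18 in ASC-Is, again lowest in replicate 2 at each stage. In ASC-L replicate 2, its lowest array, 10 of the 12 endothelial markers were at their highest. Bmpr1a, the main BMP type I receptor of mesenchyme, had the smallest within-stage SD of all members, 0.073, and changed by 0.03 to 0.08.

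Among the 4 type II receptors, Acvr2a had 9.98, 9.43 and 9.43 in ASC-Ns, 9.75, 8.35 and 9.16 in ASC-Ls and 10.13, 8.69 and 9.17 in ASC-Is. Its change in ASC-Ls against ASC-Ns was -0.52 (SE 0.42), with overlapping arrays, and -0.16 without ASC-L replicate 2 (SE 0.40). Bmpr2, the receptor shared by most BMPs, had 9.68, 9.54 and 9.89 in ASC-Ns, 9.78, 10.07 and 10.03 in ASC-Ls and 9.95, 9.87 and 10.21 in ASC-Is. Its change was 0.31 in ASC-Is against ASC-Ns (SE 0.14) with 1 ASC-I array inside the ASC-N range.

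Tgfbr3 encodes betaglycan, the type III receptor, which presents TGF-beta2 and binds inhibin. It had 10.31, 10.00 and 10.70 in ASC-Ns, 10.10, 6.98 and 10.43 in ASC-Ls and 9.64, 9.02 and 10.81 in ASC-Is. A single ASC-L array, replicate 2, lay far below the other 8. The change in ASC-Ls against ASC-Ns was -1.17 (SE 0.83), and without ASC-L replicate 2 it was -0.07 (SE 0.46).

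**Figure D2:**
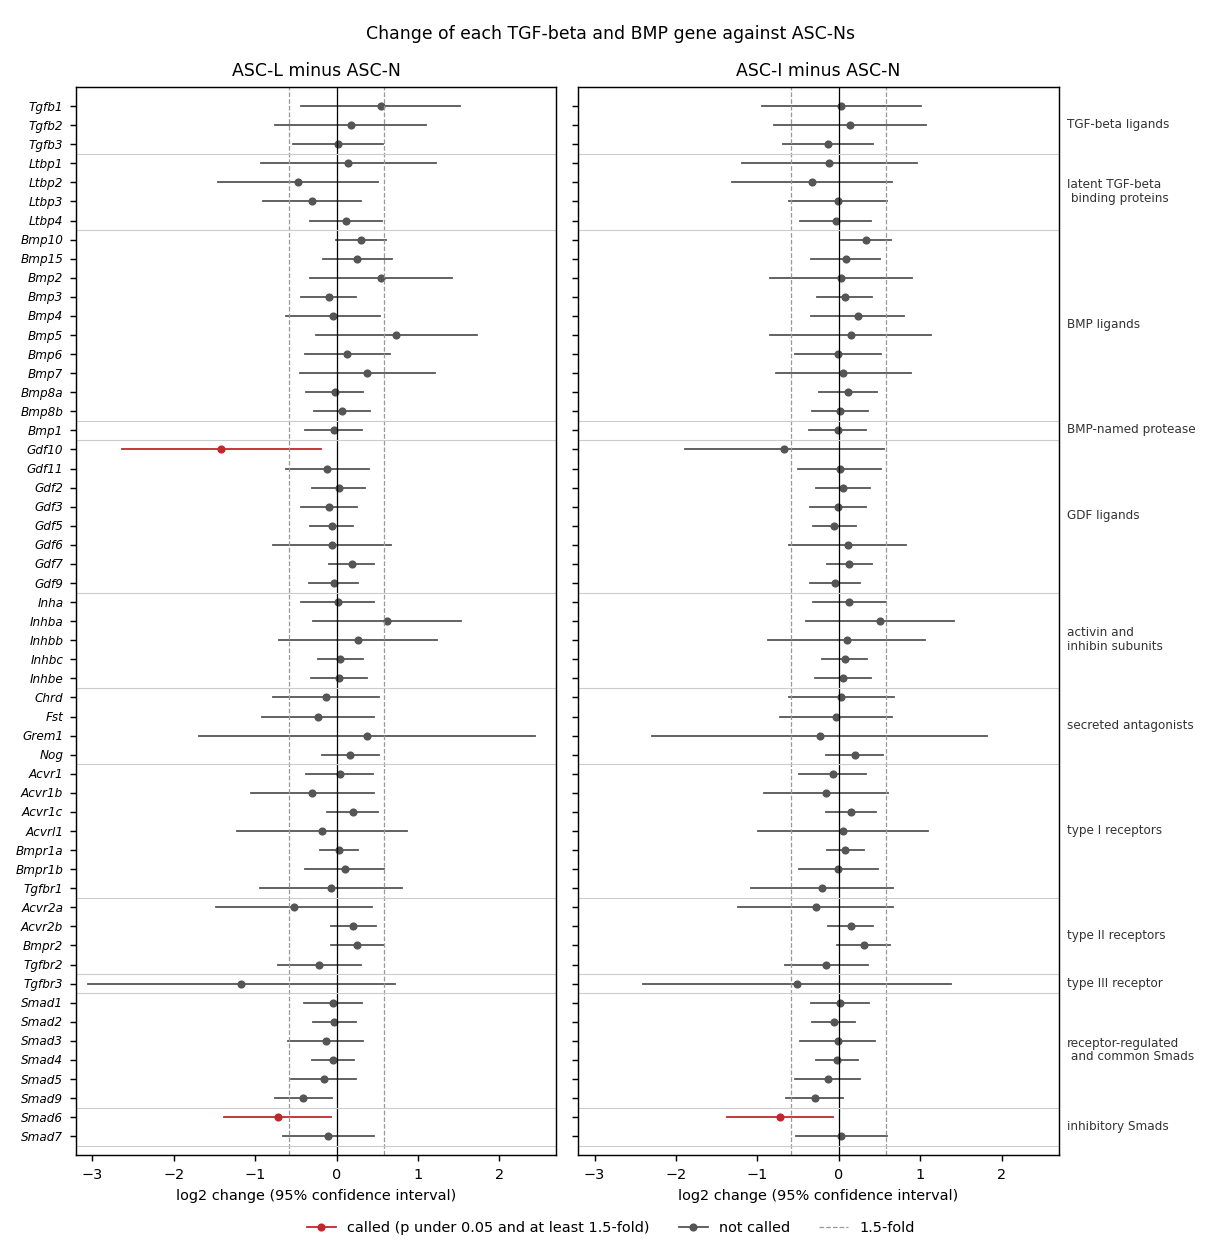
Log2 change of each of the 55 members (dots) with its 95% confidence interval (lines) in ASC-Ls against ASC-Ns on the left and ASC-Is against ASC-Ns on the right, grouped by role. Red marks the called genes, Gdf10 and Smad6, and dashed lines mark 1.5-fold. Grem1 and Tgfbr3 have the widest intervals.

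The intervals set how far the remaining members could be read. The 95% interval lay wholly inside 1.5-fold in either direction for 24 of 55 members in ASC-Ls against ASC-Ns (43.6%), 27 in ASC-Is against ASC-Ns (49.1%) and 26 in ASC-Is against ASC-Ls (47.3%). The same held for 66.7%, 70.4% and 69.5% of all genes. The median within-stage SD was 0.291 over the members and 0.196 over all genes, so a smaller share of the members could be bounded. For the other members, Tgfb1, Grem1 and Tgfbr3 among them, a change of 1.5-fold or more was not excluded by the interval in ASC-Ls against ASC-Ns.

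ASC-L replicate 2 was the highest or the lowest array for 24 of the 55 members (43.6%), against 36.7% of all genes, with 12 members highest and 12 lowest. Bmp7, an epithelial BMP chosen for display after its values were seen, had 5.40, 6.99 and 5.66 in ASC-Ls and 5.74, 6.01 and 5.34 in the ASC-I arrays and 5.66, 5.64 and 5.61 in the ASC-N arrays. Its change in ASC-Ls against ASC-Ns was 0.38 over all arrays and -0.11 without ASC-L replicate 2. Tgfbr3 and Acvrl1 were lowest in this array, and Tgfb1, Inhba, Bmp5 and Bmp7 were highest in it. The part of luminal, basal and endothelial cells in these values was not tested beyond leaving the array out.

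**Figure D3:**
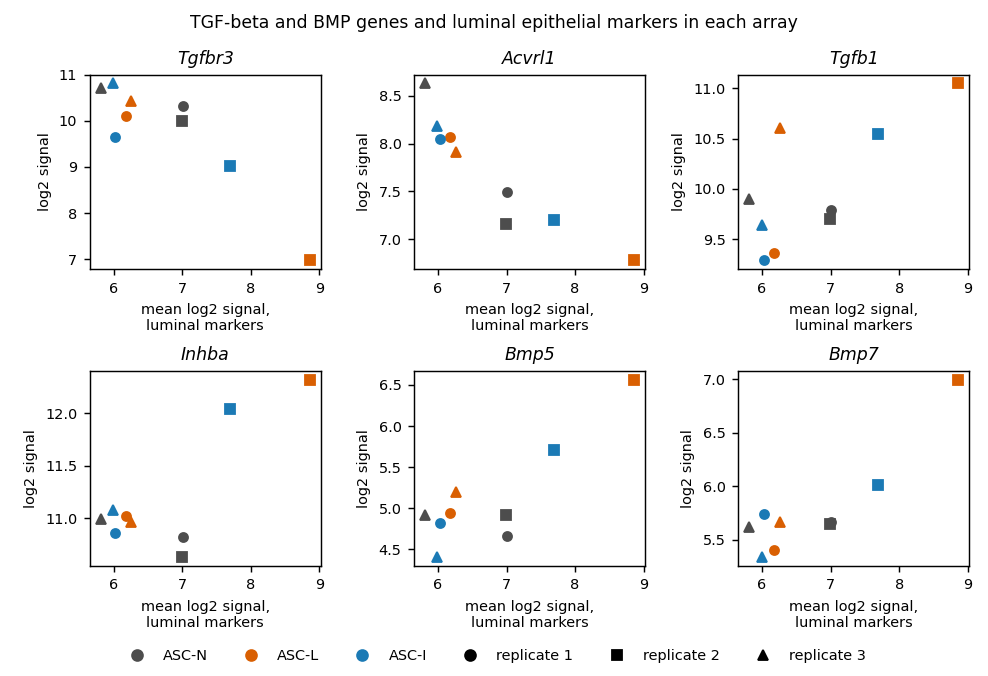
Log2 signal of 6 members (vertical axes) against the mean log2 signal of 18 luminal epithelial markers (horizontal axes) in the 9 arrays, with stage by color and replicate by symbol. ASC-L replicate 2, at a marker mean of 8.86, lies farthest right in every panel, at the bottom for Tgfbr3 and Acvrl1 and at the top for the other 4.

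Over all 55 members the median change was -0.02 in ASC-Ls and 0.02 in ASC-Is relative to ASC-Ns, and 0.03 in ASC-Is relative to ASC-Ls, compared with 0.01, 0.00 and -0.01 over all genes. Members above 0 numbered 27, 29 and 33 in these comparisons, against 51.7%, 50.9% and 48.0% of all genes. The family as a whole had no common direction.

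**Figure D4:**
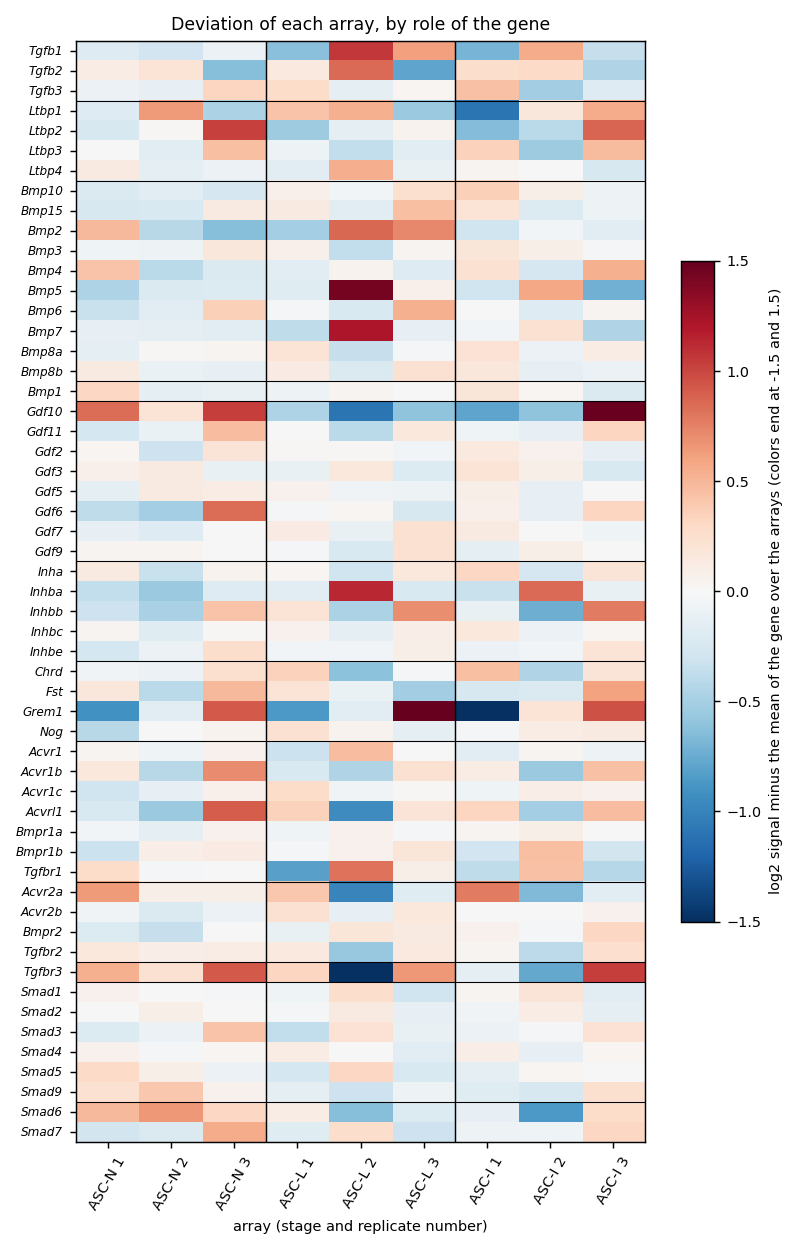
Deviation of each of the 55 members (rows, grouped by role) in each array (columns) from the mean of that gene over the 9 arrays, in log2 units. Colors end at -1.5 and 1.5. The column of ASC-L replicate 2 holds the highest or lowest value for 24 members, and the rows of Gdf10 and Smad6 are high in the ASC-N columns.

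Genes known to be induced by BMP were then read beside the members, from a list drawn up for the pathway. Of the 15 measured, 13 had a change below 0 in ASC-Ls against ASC-Ns, with a median of -0.43 against 0.01 for all genes, and 2 were called, Atoh8 and Dlx2, both lower, where 0.457% of all genes were called lower. In ASC-Is against ASC-Ns 12 of 15 were below 0, with a median of -0.22, and 1, Sp7, was called lower, where 0.181% of all genes were. In ASC-Is against ASC-Ls 12 of 15 were above 0, with a median of 0.16 and 0 called.

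Dlx2, a homeobox factor, had 7.01, 6.89 and 6.67 in ASC-Ns, 6.40, 6.09 and 6.01 in ASC-Ls and 6.76, 6.42 and 6.40 in ASC-Is. The ASC-L arrays lay below the ASC-N arrays, and the highest of them met the lowest ASC-I array, with a change of -0.69 against ASC-Ns (SE 0.16, adjusted P = 0.998). It was still called without ASC-L replicate 2 (-0.65, SE 0.18).

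Atoh8, a basic helix-loop-helix factor, had 8.06, 8.22 and 8.11 in ASC-Ns, 7.34, 6.21 and 6.95 in ASC-Ls and 7.44, 6.68 and 8.50 in ASC-Is. The ASC-L arrays lay below the ASC-N arrays, and ASC-I replicate 3 was the highest of all arrays, as it was for Gdf10. The change in ASC-Ls was -1.30 against ASC-Ns (SE 0.43, adjusted P = 0.998), and -0.99 without ASC-L replicate 2, where it was not called (SE 0.44).

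Sp7, the osteoblast factor osterix, had 5.20, 4.88 and 5.34 in the ASC-I arrays and 6.41, 5.51 and 5.38 in the ASC-N arrays. The arrays did not overlap, but the change of -0.62 (SE 0.27, adjusted P = 1) came with a gap of less than 0.1 between the stages, and ASC-N replicate 1 stood far above the other ASC-N arrays.

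The 4 Id genes, direct BMP targets that block basic helix-loop-helix factors, were named after their values were seen. Id1 had 7.002, 6.82 and 6.82 in the ASC-L arrays and 7.37, 7.33 and 7.45 in the ASC-N arrays, a change of -0.50 (SE 0.17) that passed the P limit but was under 1.5-fold. Id3 had 8.62, 7.87 and 8.50 in the ASC-L arrays and 8.66, 9.13 and 9.50 in the ASC-N arrays, a change of -0.76 that missed the P limit (SE 0.39). The arrays of the 2 stages did not overlap for either gene, for Id3 by a margin of less than 0.1. Of all genes, 3.70% lay wholly lower in ASC-Ls. The other two overlapped. Id2 had 7.26, 8.09 and 8.21 in the ASC-L arrays and 8.83, 8.77 and 7.58 in the ASC-N arrays (-0.54, SE 0.36), and Id4 had 9.39, 7.93 and 8.37 in the ASC-L arrays and 9.42, 8.58 and 8.99 in the ASC-N arrays (-0.43, SE 0.48). Dlx5 and Msx1 of the same list were also named after their values were seen. In ASC-Ls Dlx5 lay wholly below ASC-Ns (-0.23, SE 0.11). Msx1 lay wholly above them (0.20, SE 0.11), where 4.89% of all genes did. Both kept these sides in ASC-Is (-0.22 and 0.19), and neither was called.

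A check of these targets under other fits was added after their values were seen. Leaving out an ASC-I array could not move their changes in ASC-Ls against ASC-Ns. With any single array left out, 12 to 14 of the 15 BMP targets were below 0 in this comparison, with medians of -0.44 to -0.27. Without ASC-L replicate 2 it was 14 of 15 with a median of -0.27, and 1 gene, Dlx2, was called. Over all alternatives that kept the fold limit, 1 to 4 targets were called lower and 0 higher. The 4 were Atoh8 and Dlx2 with Id2 and Sp7 without ASC-N replicate 3 and with array weights, and with Alpl and Id3 under the replicate block. In that order, these fits called 1.77%, 1.56% and 1.48% of all genes in either direction, against 0.627% in the main fit.

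**Figure D5:**
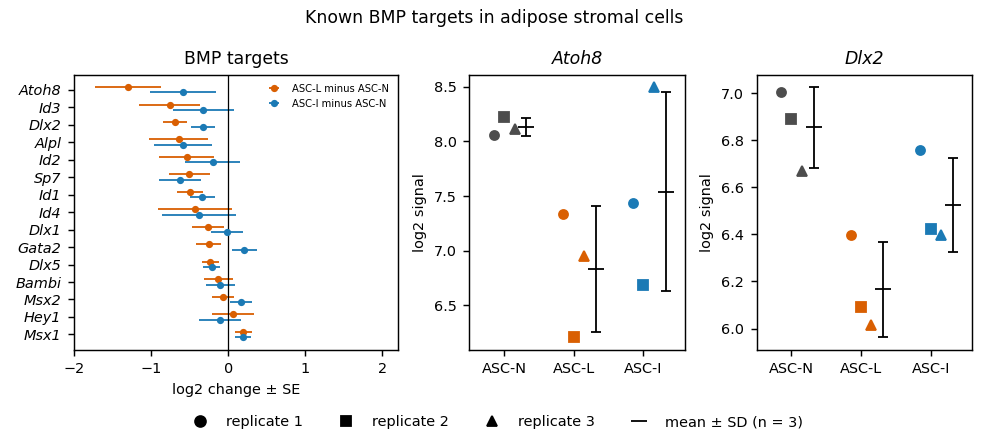
Left, log2 change ± SE of 15 known BMP targets in ASC-Ls against ASC-Ns (orange) and ASC-Is against ASC-Ns (blue), and right, the log2 signal of Atoh8 and Dlx2 in each array with the mean ± SD of 3 arrays. In ASC-Ls 13 of the 15 lie below 0.

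The other lists of the pathway held no calls in any comparison. Of 23 known TGF-beta targets 12 were above 0 and 11 below in ASC-Ls against ASC-Ns, with a median of 0.05. Tgfbi, a secreted matrix protein, had 8.01, 7.47 and 6.97 in the ASC-L arrays and 9.21, 8.22 and 7.44 in the ASC-N arrays (-0.81, SE 0.42), and Col3a1, a fibrillar collagen, had 12.61, 10.81 and 12.21 in the ASC-L arrays and 12.76, 12.15 and 12.50 in the ASC-N arrays (-0.59, SE 0.46). Both overlapped between stages, and without ASC-L replicate 2 the change of Col3a1 was -0.06 (SE 0.34). Col4a1, a basement membrane collagen chosen after its values were seen, had 9.67, 9.82 and 9.93 in the ASC-L arrays and 9.49, 9.37 and 9.35 in the ASC-N arrays. These arrays did not overlap, and the change of 0.40 (SE 0.17) passed the P limit but was under 1.5-fold. In ASC-Is against ASC-Ns the median of the TGF-beta targets was 0.06, with 13 above 0.

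The 20 other antagonists and modulators had a median of -0.115 in ASC-Ls against ASC-Ns. Chrdl1, a chordin-like BMP antagonist, changed by -0.38 in ASC-Is against ASC-Ns (SE 0.22), and Crim1, a BMP-binding membrane protein, by 0.36 (SE 0.20). The 11 other ligands and co-receptors, which include Amh (0.31 in ASC-Ls against ASC-Ns, SE 0.14) and the TGF-beta co-receptor Cd109 (-0.27 in ASC-Is against ASC-Ls, SE 0.24), stayed between -0.27 and 0.31.

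Among 16 genes of TGF-beta storage and activation, Mmp9, a protease that can release TGF-beta, had 6.01, 10.96 and 7.99 in the ASC-L arrays and 7.84, 6.68 and 6.42 in the ASC-N arrays (1.34, SE 1.05). Its ASC-L arrays spanned the ASC-N arrays on both sides, and the change was 0.02 without ASC-L replicate 2 (SE 0.65). Itgb3, a subunit of a TGF-beta-activating integrin, had 7.24, 9.39 and 8.77 in the ASC-L arrays and 7.64, 8.03 and 7.48 in the ASC-N arrays (0.75, SE 0.58), and its change without ASC-L replicate 2 was 0.29 (SE 0.58).

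The 18 intracellular regulators, which include ubiquitin ligases and Smad corepressors, were all below 0 in ASC-Is against ASC-Ls, where 48.0% of all genes were above 0. The median was -0.12 and the range -0.37 to -0.0001. The 2 with the largest changes were the ubiquitin ligase Smurf1 (-0.37, SE 0.27) and the corepressor Tgif1, whose change was larger in ASC-Ls against ASC-Ns (0.29, SE 0.32). In that comparison 15 of the 18 were above 0, and both comparisons share the ASC-L arrays. ASC-L replicate 2 was the highest ASC-L array for Smurf1 (9.42) and for Tgif1 (9.91). The counts without this array are not given here, so 18 of 18 is not shown to hold without it.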

How the data were processed

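Adipose stromal cell RNA from 3 stages (ASC-N, ASC-L, ASC-I, 3 arrays each) was measured on Affymetrix Mouse Gene 1.0 ST arrays. The deposited values are log2 signals per probe set, normalized by the authors. Their methods give robust multi-array average, while the submitters' processing notes name GCRMA and limma without versions, so the method is not settled. Arrays have no read depth, and their number limits the precision.

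Of 28348 probe sets the 21762 with exactly 1 gene symbol were kept (1621 had several, 4965 none), and each gene took the mean of its probe sets. Symbols came from the platform annotation, and all 55 members matched RefSeq by Entrez ID. Groups followed the sample titles. Linear models with empirical Bayes (limma 3.58.1, R 4.3.3) were fitted to stage means over all 9 arrays and 19930 genes with no floor or filter on signal (6 residual and 2.91 prior degrees of freedom), and the fit was tested on simulated data. A call was an unadjusted P below 0.05 and at least 1.5-fold. Adjusted P values were Benjamini-Hochberg over all genes. Of the members, 7 lay in the lowest 25% of mean signal.

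Members and lists were chosen with earlier results of these data known. Values in every array were given for called members and for the 2 members of each other role with the largest change in any comparison. Of the other lists, up to 4 called genes or 2 uncalled ones were named, and the text names the exceptions. Cdkn1a, Runx2 and Fbn1 of those lists were not analysed here.

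Same-numbered arrays of ASC-Is and ASC-Ls deviated together from their stage means over all genes (r = 0.459 to 0.727), and each of these 6 arrays correlated best with its own number. The pairing came from the replicate numbers in the titles, and a replicate block changed no call of a member in that comparison. Alternatives tried were other priors, array weights, normalizations, filters, the replicate block, no fold limit, and arrays left out.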

Additional observations from a re-analysis of the deposited data

How the results depend on the processing

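The direction of Gdf10 and Smad6 held under every alternative tried in ASC-Ls and in ASC-Is against ASC-Ns. In part of these it was fixed in advance: other priors, the filters, the block and no fold limit left the changes as they were. Leaving out an array of the stage not compared did so too. These alternatives could alter only the SE, the P value or the limit. Of 22 alternatives, Gdf10 kept its side of the limits in ASC-Ls in 16 and lost the call in 6, Smad6 kept it in 17 and lost it in 5, and in ASC-Is Smad6 kept it in 16 and lost it in 6. The smallest adjusted P of any member over all 23 fits was 0.166. With single arrays left out, the members called numbered 0 to 5 in ASC-Ls against ASC-Ns, 0 to 2 in ASC-Is against ASC-Ns, 0 to 2 in ASC-Is against ASC-Ls and 0 to 4 by the F test. The 2 in ASC-Is against ASC-Ns and the 4 by the F test came without ASC-I replicate 3. There 0.462% and 1.86% of all genes passed. Without ASC-L replicate 1, 5 were called in ASC-Ls against ASC-Ns (Bmp2, Bmp5, Gdf10, Smad6 and Tgfb1), where 2.03% of all genes were, and 2 in ASC-Is against ASC-Ls (Bmp2 and Tgfb1), where 1.66% were. In ASC-Ls against ASC-Ns 0 were called without ASC-L replicate 2 or without ASC-L replicate 3, where 0.617% and 1.15% of all genes were. Without each ASC-N array 1 member was called. It was Bmp2, higher, without replicate 1 (0.401% of all genes), where both Gdf10 and Smad6 were lost. It was Gdf10 without replicate 2 (0.567% of all genes) and Smad6 without replicate 3 (1.77%).

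Without both arrays of high epithelial signal, 0 were called in ASC-Ls and 0 in ASC-Is against ASC-Ns, where 0.773% and 0.723% of all genes were. In ASC-Ls Smad6 (-0.53, SE 0.18) still passed the P limit and missed only the fold limit, while Gdf10 (-1.22, SE 0.59) missed the P limit. The F test gave 1 member, where 2.65% of all genes passed. Leaving out ASC-N replicate 3 as well was a setting chosen after seeing the data. It gave 3 members in ASC-Ls (Acvrl1, Inhbb and Smad6), where 4.61% of all genes were called. It gave 2 in ASC-Is (Acvrl1 and Gdf6), where 4.8% were, and 6 by the F test, where 1998 of 19930 genes passed. The F test called 4 with array weights, where 5.83% of all genes passed. With no fold limit it was 3 in ASC-Ls and 2 in ASC-Is. The cause of these shifts was not tested, beyond the fewer arrays or looser limit that define them.

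With the replicate block, 3 members were called in ASC-Ls against ASC-Ns, where Bmp5 was added and 1.48% of all genes were called. Called members numbered 1 in ASC-Is against ASC-Ns (0.452% of all genes), 0 in ASC-Is against ASC-Ls (1.04%) and 2 by the F test (3.91%). Against ASC-Ns the match of the numbers was partial, and the main fit held no block. Same-numbered residuals of replicate 1 correlated at -0.0777 in ASC-Ls and 0.0701 in ASC-Is. Those of replicates 2 and 3 correlated at 0.399 and 0.452 in ASC-Ls and at 0.43 and 0.504 in ASC-Is. In these comparisons 4 and 5 of 6 arrays correlated best with their own number. The block changed no other call of a member. Of the BMP targets, 10 of 11 were below 0 in ASC-Ls where genes of low variance were removed, and 12 to 14 of 15 in all other fits. Signal limits the 7 dim members, Bmp2 and Bmp10 among them.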
